A study of Mus musculus with 30 samples.

Results

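The genes described here are 10 imprinted genes with roles in growth: Plagl1, Peg3, Peg10, Peg12, Nnat, Dlk1, Mest, H19, Cdkn1c and Grb10. All probe sets that the arrays' annotation gives to 1 of these symbols and to no other gene were taken, which found 19 probe sets of 9 genes among 36701 probe sets that are not controls and 15964 genes with a probe set of their own. Of the 19, 17 reached a signal of 50 on at least 2 of the 10 arrays of their type and were tested, and 1 probe set each of Dlk1 and Grb10 did not. H19 was represented by a single probe set, 93028_at, that the annotation also gives to the microRNA gene Mir675, so its values are given but it was not counted among the 19.

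The samples were whole ovaries of embryos of BL/6-129 mice, for which the labels name no treatment or transgene. Ovaries of several embryos were pooled and total RNA was extracted at 11.5, 12.5, 14.5, 16.5 and 18.5 days post coitum (dpc), with 2 numbered samples at each age. Embryos of 11.5 and 12.5 dpc were typed as female by a polymerase chain reaction for the Y-linked gene Sry. Each sample was hybridised to 3 short-oligonucleotide array types (A, B and C), giving 30 arrays, and the deposited signals carry no detection call. Whether both samples of an age were drawn from different pools is not stated in the labels, so every p-value below rests on a spread between samples that could be technical only.

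Imprinted genes are transcribed mainly from the allele of 1 parent, because a DNA methylation mark laid down in the egg or the sperm stays on that allele after fertilisation. Plagl1, Peg3, Peg10, Peg12, Nnat, Dlk1 and Mest are expressed from the paternal allele, while H19, Cdkn1c and, outside the brain, Grb10 are expressed mainly from the maternal allele. Many paternally expressed genes promote growth of the embryo and many maternally expressed ones restrain it, and several are highly expressed in fetal tissues and decline after birth. The fetal gonad is also the place where germ cells erase these methylation marks, while the somatic cells around them keep them. The arrays measured total transcript and not the parental allele, and in whole ovaries fewer cells of a type and less RNA per cell cannot be told apart.

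Imprinting marks sit on CpG dinucleotides, so the windows around the RefSeq starts (build GRCm38.p6, 250 bases before to 50 bases after the start) are shown for 5 of the genes whose signal fell, with each CpG in capitals. Windows were matched for 7 of the 10 genes, which leaves out Peg10, H19 and Cdkn1c. The Plagl1 window lay at chr10:13090582-13090881 on the plus strand, that of Peg3 at chr7:6730370-6730669 on the minus strand, and that of Peg12 at chr7:62464461-62464760 on the minus strand. The window of Nnat lay at chr2:157559828-157560127 and the second of 3 Mest windows at chr6:30737800-30738099, both on the plus strand. All are written 5′ to 3′ on the gene's strand.
Plagl1: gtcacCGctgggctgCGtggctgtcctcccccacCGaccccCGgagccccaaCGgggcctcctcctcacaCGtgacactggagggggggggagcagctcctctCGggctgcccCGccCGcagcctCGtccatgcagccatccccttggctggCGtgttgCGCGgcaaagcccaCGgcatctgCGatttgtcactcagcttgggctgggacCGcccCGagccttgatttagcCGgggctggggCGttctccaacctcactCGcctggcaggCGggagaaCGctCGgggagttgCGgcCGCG
Peg3: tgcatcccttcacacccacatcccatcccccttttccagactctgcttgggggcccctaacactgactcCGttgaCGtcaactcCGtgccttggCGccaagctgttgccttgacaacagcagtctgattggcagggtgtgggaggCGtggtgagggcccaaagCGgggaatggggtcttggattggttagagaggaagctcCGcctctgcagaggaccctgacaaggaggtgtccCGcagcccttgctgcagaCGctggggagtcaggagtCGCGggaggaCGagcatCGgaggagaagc
Peg12: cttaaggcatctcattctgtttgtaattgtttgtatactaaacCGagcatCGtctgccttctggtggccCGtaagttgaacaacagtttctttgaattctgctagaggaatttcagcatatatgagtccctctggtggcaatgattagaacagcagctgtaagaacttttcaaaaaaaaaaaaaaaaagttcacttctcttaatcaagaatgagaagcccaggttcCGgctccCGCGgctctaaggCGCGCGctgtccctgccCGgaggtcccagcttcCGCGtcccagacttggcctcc
Nnat: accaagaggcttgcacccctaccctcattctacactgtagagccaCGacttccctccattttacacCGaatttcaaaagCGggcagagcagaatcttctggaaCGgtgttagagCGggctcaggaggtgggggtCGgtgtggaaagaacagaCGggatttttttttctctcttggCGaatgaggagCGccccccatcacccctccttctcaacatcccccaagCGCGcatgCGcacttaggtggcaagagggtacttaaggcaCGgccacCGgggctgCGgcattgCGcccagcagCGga
Mest: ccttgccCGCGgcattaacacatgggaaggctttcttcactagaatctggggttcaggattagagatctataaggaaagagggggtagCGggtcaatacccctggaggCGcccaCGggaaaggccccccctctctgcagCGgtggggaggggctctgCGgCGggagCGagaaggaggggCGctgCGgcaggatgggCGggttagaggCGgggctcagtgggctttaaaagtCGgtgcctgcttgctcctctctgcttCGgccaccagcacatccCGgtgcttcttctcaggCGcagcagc

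CpG was counted as the letters CG, which read the same on both strands. The windows held 26 CpG in Plagl1, 13 in Peg3, 12 in Peg12, 17 in Nnat and 17 in Mest, where the median over 32851 windows of 300 bases was 7. At least as many CpG as in Plagl1 were held by 16.9% of all windows, and as many as in Peg12 by 39.6%. All 10 windows of the 7 genes were above the median, and the window richest in CpG was a Grb10 start with 45, a number reached by 1.93% of windows. The letters GGGGCCCC, the palindromic motif bound by the Plagl1 protein, occurred in 1 of the 10 windows, that of Peg3, at bases 50 to 57 of the sequence above. They occurred in 1.08% of all windows of that length (354), and a match in letters is a description and not a binding site.

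Between 11.5 and 18.5 dpc, 6 of the 7 paternally expressed genes fell in the ovary. In the probe set of highest mean signal of each gene, Plagl1 fell 4.30-fold, Peg12 4.19-fold, Peg10 3.70-fold, Nnat 2.69-fold, Mest 2.56-fold and Peg3 1.58-fold. The place of Plagl1 in this order held for that probe set and not for all 4 of the gene, and that of Peg10, dim at the later ages, depended on the constant added to the signal. No probe set of Dlk1, Cdkn1c or Grb10 passed the test in this comparison, and no probe set of any of the 9 genes was called higher. Over probe sets, 9 of the 17 tested were lower at an adjusted p under 0.05 (limma on log2(signal + 16), Benjamini-Hochberg adjustment over all 24825 tested probe sets), where 6.87% of all tested probe sets were lower and 7.59% were higher (14.5% in either direction). At an unadjusted p under 0.05, 11 of the 17 differed, all of them lower. The share of all probe sets at that unadjusted threshold was not computed.

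Both samples of 18.5 dpc were below both of 11.5 dpc in 14 of the 17 probe sets and above them in 1, against 26.9% and 28.8% of all tested probe sets. The median log2 change of the 17 was -0.74, beside 0.02 over all tested probe sets. Represented by its tested probe set of highest mean signal, a gene was lower in 6 of 9 cases, beside 8.37% of all 12589 genes, with a median log2 change of -1.35 beside 0.02. Fold changes are on the log2(signal + 16) scale, which understates the change of dim probe sets. Leaving out 1 sample at a time gave between 6 and 11 called probe sets.

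**Figure D1:**
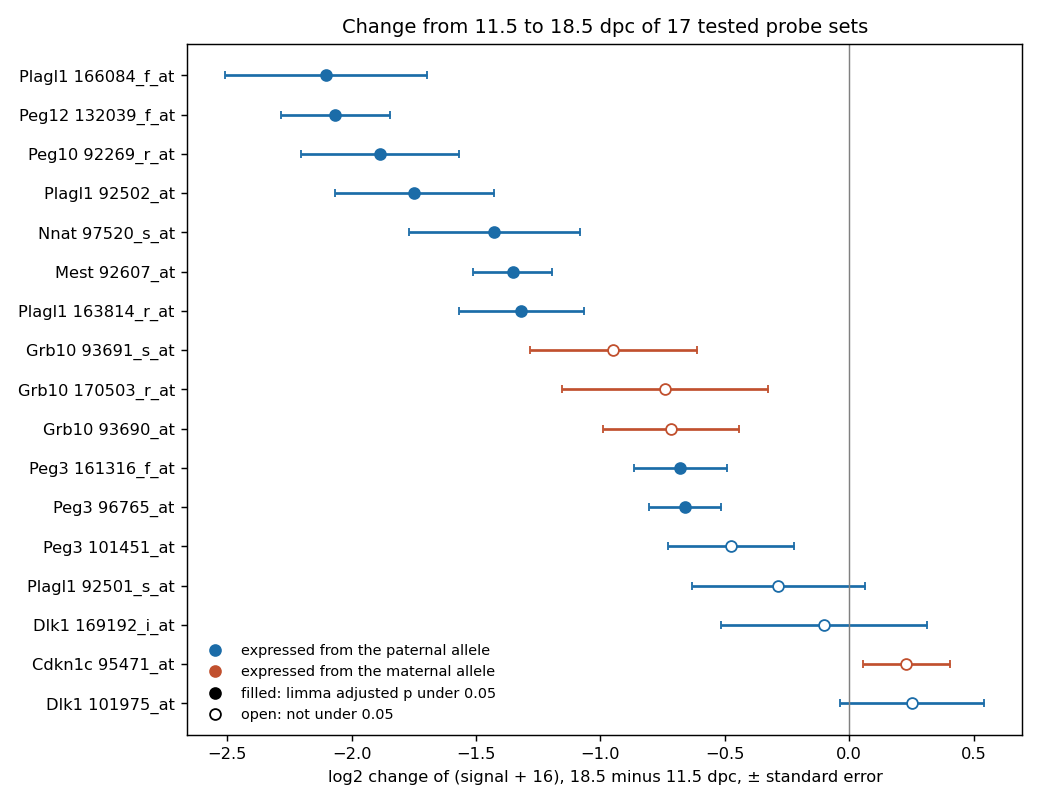
The log2 change of (signal + 16) from 11.5 to 18.5 dpc is drawn on the x axis for each of the 17 tested probe sets, with bars of ± 1 standard error, coloured by the parental allele that is expressed. Filled points had a limma adjusted p under 0.05, and all 9 of them lie left of 0 and belong to paternally expressed genes.

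Plagl1 encodes a zinc finger transcription factor that induces cell cycle arrest and regulates other imprinted genes. Its most strongly hybridised probe set, 166084_f_at on array C, read 2372 and 3877 at 11.5 dpc, 4579 and 4264 at 12.5, 2110.0 and 2921 at 14.5, 3404 and 1113 at 16.5 and 629 and 764 at 18.5 dpc. The f in the name of 166084_f_at marks probes that may match more than 1 sequence. Both samples of 18.5 dpc were below every earlier sample, and the samples of 16.5 dpc were far apart. The mean signal fell from 3124 ± 1064 (SD, n = 2) to 697 ± 95.6 (SD, n = 2), a log2 change of -2.10 ± 0.40 (standard error; 4.30-fold, limma adjusted p = 0.00443).

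A second Plagl1 probe set, 92502_at on array A, read 114 and 220.4 at 11.5 dpc and 184 and 197 at 12.5 dpc, and 33.2 and 39.4 at 18.5 dpc. It fell 3.36-fold (log2 change -1.75 ± 0.32 SE, limma adjusted p = 0.00335), with no overlap between 11.5 and 18.5 dpc. The third, 163814_r_at on array B, fell from 250.4 ± 61.4 (SD, n = 2) to 89.7 ± 10.5 (SD, n = 2), 2.49-fold (limma adjusted p = 0.0037). The fourth, 92501_s_at, was dim and did not pass the test: it read 51.0 and 68.1 at 11.5 dpc and 45.4 and 45.8 at 18.5 dpc, a log2 change of -0.29 ± 0.35 SE (limma adjusted p = 0.643). The 3 probe sets that fell were called in every fit that left out 1 sample, with a highest adjusted p of 0.0491. Over the 5 ages together, 166084_f_at (adjusted p = 0.00654) and 163814_r_at (0.00973) did not keep their call without the first sample of 18.5 dpc (0.0694 and 0.0732), nor did 166084_f_at without the intensity trend (0.0538).

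Peg3 encodes a large zinc finger protein linked to maternal behaviour, growth and cell death. Its brightest probe set, 96765_at, read 3435 and 3896 at 11.5 dpc, 3258 and 2767 at 12.5, 2845 and 2632 at 14.5, 2627 and 2937 at 16.5 and 2354 and 2269 at 18.5 dpc. The samples of 18.5 dpc were the lowest and those of 11.5 dpc the highest 2 of the 10, with the ages between them overlapping. The fall of 1.58-fold (log2 change -0.66 ± 0.14 SE, limma adjusted p = 0.00969) was the smallest among the 6 genes. It lost its call under quantile normalization (adjusted p = 0.0575) and without either sample of 18.5 dpc (0.0711 and 0.0883).

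Peg3 probe set 161316_f_at fell by about the same size, 1.60-fold, from 394 ± 53.7 (SD, n = 2) to 239 ± 11.0 (SD, n = 2) (limma adjusted p = 0.0287). That call was lost without the second sample of 11.5 dpc (adjusted p = 0.113) and without either sample of 18.5 dpc (0.112 and 0.152), as well as without the intensity trend of the variance (0.0536). The third, 101451_at, read 1359 and 1345 at 11.5 dpc and 899 and 1039 at 18.5 dpc, and its log2 change of -0.48 ± 0.25 SE did not pass (limma adjusted p = 0.24), although it did without either sample of 14.5 dpc (0.0464 and 0.0461). Its highest values were those of 12.5 dpc, 1898 and 1789, so the 3 probe sets differed in shape before 18.5 dpc. None of the 3 passed the test over the 5 ages (adjusted p of 0.0574, 0.106 and 0.0654).

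Peg12 belongs to the Frat family, whose proteins bind the kinase GSK3 and act in Wnt signalling. Its only probe set, 132039_f_at, read 864 and 833 at 11.5 dpc, 668 and 538 at 12.5, 461 and 515 at 14.5, 339.6 and 324 at 16.5 and 186 and 194 at 18.5 dpc. No samples of neighbouring ages overlapped, each age lying below the one before it. The mean fell from 849 ± 21.6 (SD, n = 2) to 190.4 ± 5.80 (SD, n = 2), a log2 change of -2.07 ± 0.22 SE (4.19-fold, limma adjusted p = 8.5e-05). The f in its name, as the s in others, marks probes that may match more than 1 sequence. It also passed limma's test over the 5 ages (adjusted p = 0.000461), and with any 1 sample left out its highest adjusted p for 18.5 against 11.5 dpc was 0.00201.

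Peg10 derives from a retrotransposon and is needed for the placenta. Its only probe set, 92269_r_at, read 113 and 198 at 11.5 dpc, 155 and 85.5 at 12.5, 59.1 and 107 at 14.5, 47.9 and 38.4 at 16.5 and 29.2 and 28.9 at 18.5 dpc. The samples of 12.5 dpc overlapped those of 11.5 and of 14.5 dpc, both samples of 14.5 dpc lay below both of 11.5 dpc, and every sample of 16.5 and 18.5 dpc lay below all of these. The log2 change from 11.5 to 18.5 dpc was -1.89 ± 0.32 SE (3.70-fold, limma adjusted p = 0.00211). Its signals of 16.5 and 18.5 dpc were under the value of 50 used to choose which probe sets to test, so the size of the fall depended on the constant added to the signal: the log2 change was -1.21 with 64 added and -2.22 with 4 added, called in both. The r in its name marks a probe set that broke some of the design's selection rules.

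Mest encodes an enzyme of the hydrolase fold and is widely expressed in mesodermal tissue of the embryo. Its probe set 92607_at read 1330.5 and 1348 at 11.5 dpc, 1329 and 1244 at 12.5, 959 and 819.7 at 14.5, 978 and 749.6 at 16.5 and 520.4 and 508 at 18.5 dpc. The samples formed 3 levels that did not overlap: 11.5 and 12.5 dpc, then 14.5 and 16.5 dpc, then 18.5 dpc. The mean went from 1339 ± 12.4 (SD, n = 2) to 514 ± 8.48 (SD, n = 2), a fall of 2.56-fold (log2 change -1.35 ± 0.16 SE, limma adjusted p = 0.000191). With any 1 sample left out, its highest adjusted p was 0.00462.

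Nnat encodes neuronatin, a small membrane protein of the endoplasmic reticulum that is abundant in the developing brain. Its probe set 97520_s_at read 373 and 666 at 11.5 dpc, 835 and 956 at 12.5, 209 and 514 at 14.5, 283 and 269 at 16.5 and 146 and 210.3 at 18.5 dpc. The samples of 12.5 dpc were the highest of all 10, those of 18.5 dpc lay below both samples of 11.5 dpc, and the samples of 11.5 and of 14.5 dpc were far apart. The fall from 11.5 to 18.5 dpc was 2.69-fold (log2 change -1.43 ± 0.34 SE, limma adjusted p = 0.0159). This call was lost without the second sample of 11.5 dpc (adjusted p = 0.101) and without the first sample of 18.5 dpc (0.123). Over the 5 ages the adjusted p was 0.00659, and it was at most 0.0447 with any 1 sample left out.

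Dlk1 encodes a transmembrane protein related to the Notch ligands, made by progenitor cells and by fetal endocrine tissue. Its probe set 101975_at read 393 and 756 at 11.5 dpc, 773 and 826 at 12.5, 589 and 946 at 14.5, 1032 and 687 at 16.5 and 612 and 697 at 18.5 dpc. Both samples of 18.5 dpc lay between the samples of 11.5 dpc. The log2 change of 0.25 ± 0.29 SE did not pass the test (limma adjusted p = 0.621), and it was -0.21 without the first sample of 11.5 dpc. Probe set 169192_i_at on array C ranged from 96.6 to 246 over the 10 samples with a log2 change of -0.10 ± 0.41 SE (limma adjusted p = 0.907), and 108265_at on array B, from 8.3 to 41.0, was too dim to test. Dlk1 was the only one of the 7 paternally expressed genes with no probe set called in any comparison made here.

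Among the maternally expressed genes, Cdkn1c encodes p57, an inhibitor of cyclin-dependent kinases. Its probe set 95471_at read 2372 and 2674 at 11.5 dpc, 2934 and 2516 at 12.5, 3240.1 and 2799.8 at 14.5, 3080.3 and 4264 at 16.5 and 3158 and 2765 at 18.5 dpc. Both samples of 18.5 dpc were above both of 11.5 dpc, the only such case among the 17 probe sets. The log2 change was 0.23 ± 0.18 SE (1.17-fold, limma adjusted p = 0.43), which did not pass.

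H19 is a long noncoding RNA that also serves as the precursor of the microRNA of Mir675. Probe set 93028_at, shared by both annotations, read 4216 and 5799 at 11.5 dpc, 5846 and 5685 at 12.5, 5450.4 and 6001 at 14.5, 7233 and 7652 at 16.5 and 6431 and 6252 at 18.5 dpc. The samples of 16.5 dpc were the highest, and those of 18.5 dpc were above both of 11.5 dpc. The log2 change from 11.5 to 18.5 dpc was 0.36 ± 0.16 SE (1.28-fold) and did not pass the test (limma adjusted p = 0.158), nor did the test over the 5 ages (0.125). Without the second sample of 11.5 dpc both passed (0.0175, with a log2 change of 0.59, and 0.0157).

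Grb10 encodes an adaptor protein that dampens signalling of the insulin and IGF receptors. Probe set 93691_s_at read 156 and 361 at 11.5 dpc, 346 and 485 at 12.5, 51.5 and 85.0 at 14.5, 209.6 and 136 at 16.5 and 127 and 105 at 18.5 dpc. Both samples of 14.5 dpc were below all others. From 12.5 to 14.5 dpc it fell 5.16-fold (log2 change -2.37 ± 0.34 SE, limma adjusted p = 0.00343). The other probe set on array A, 93690_at, read 267 and 396 at 12.5 dpc and 99.4 and 107 at 14.5 dpc and fell 2.87-fold (log2 change -1.52 ± 0.27 SE, limma adjusted p = 0.015).

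The 2 array A probe sets of Grb10 thus had their lowest mean at 14.5 dpc, 68.2 ± 23.7 (SD, n = 2) and 103 ± 5.51 (SD, n = 2). From 14.5 to 16.5 dpc their log2 changes were 1.17 and 0.61, and neither passed (limma adjusted p of 0.121 and 0.305). From 11.5 to 18.5 dpc their changes of -0.95 and -0.72 did not pass either (limma adjusted p of 0.0797 and 0.103), although both did without the first sample of 11.5 dpc (0.00962 and 0.0206). Probe set 170503_r_at on array C did not share the low values of 14.5 dpc: it read 313 and 175 at 12.5 dpc and 392 and 293 at 14.5 dpc, a log2 change of 0.50 ± 0.41 SE (limma adjusted p = 0.641). The remaining probe set, 95450_at, was between 1.1 and 13.5 on all arrays and was not tested. The fall from 12.5 to 14.5 dpc was lost without the second sample of 12.5 dpc in both probe sets (adjusted p of 0.0594 and 0.154), and in 93690_at also without either sample of 14.5 dpc (0.0963 and 0.0869). Over the 5 ages, 93690_at (limma adjusted p = 0.0139) lost its call without the second sample of 12.5 dpc (0.0648).

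**Figure D2:**
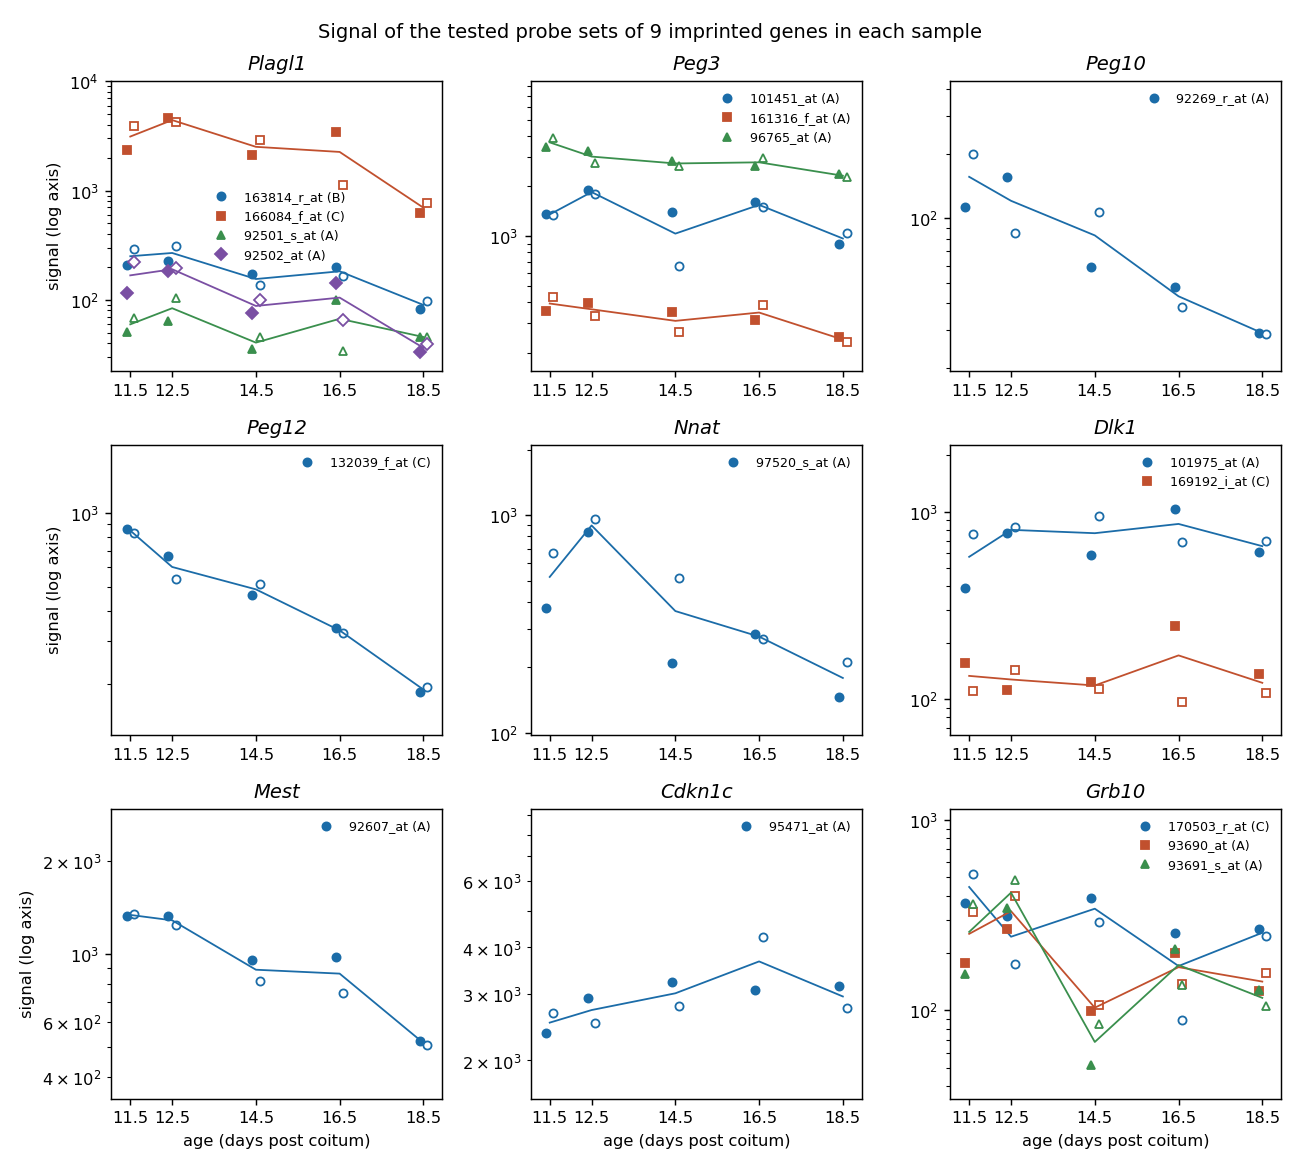
The signal (log axis, arbitrary units scaled by the authors) of each tested probe set is plotted against age in dpc, with the first sample of an age filled, the second open and a line through the means. Peg12 fell from 849 to 190 with each age below the one before it, Cdkn1c stayed between 2372 and 4264, and 2 of the 3 Grb10 probe sets had their lowest mean at 14.5 dpc.

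Over the 5 ages together, 9 of the 17 probe sets of 6 genes changed by limma's F test (Grb10, Mest, Nnat, Peg10, Peg12 and Plagl1), beside 14.4% of all tested probe sets. Few were called within a single interval. From 12.5 to 14.5 dpc the 2 array A probe sets of Grb10 were lower, of 17 tested, beside 0.576% of all tested probe sets lower and 1.66% changed in either direction. Without the second sample of 12.5 dpc the count of 2 became 0. At an unadjusted limma p under 0.05, 3 of the 17 differed from 11.5 to 12.5 dpc, 6 from 14.5 to 16.5 dpc and 7 from 16.5 to 18.5 dpc. How many of all probe sets reached that unadjusted threshold was not computed. None of the 17 passed limma's adjusted threshold in these 3 intervals, where 0.226%, 0.689% and 0.624% of all tested probe sets did. Leaving out 1 sample brought 1 call into each of these: Grb10 93691_s_at, higher at 12.5 dpc without the second sample of 11.5 dpc and higher at 16.5 dpc without either sample of 11.5 dpc, and Peg3 101451_at, higher at 16.5 dpc without the first sample of 14.5 dpc. From 16.5 to 18.5 dpc these were Mest, lower without either sample of 11.5 dpc, and Plagl1 166084_f_at, lower without the second sample of 16.5 dpc.

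The median log2 change of the 17 probe sets was 0.11 from 11.5 to 12.5 dpc, -0.53 from 12.5 to 14.5 dpc, 0.16 from 14.5 to 16.5 dpc and -0.49 from 16.5 to 18.5 dpc, beside medians between -0.01 and 0.01 over all tested probe sets. Both later samples lay below both earlier ones in 10 of the 17 from 12.5 to 14.5 dpc and in 11 from 16.5 to 18.5 dpc, and above them in none. In the other 2 intervals the numbers were 4 lower and 4 higher, then 3 lower and 3 higher. The share of all tested probe sets separated in this way was not computed for single intervals. How unusual these counts are was therefore not tested. Mest had the smallest limma adjusted p of the last interval, 0.0684, for a log2 change of -0.72. Nnat came nearest to the threshold from 12.5 to 14.5 dpc among those that missed it, with a log2 change of -1.40 (limma adjusted p = 0.0665). Both passed where p-values were adjusted within each array type (0.0424 and 0.0387).

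**Figure D3:**
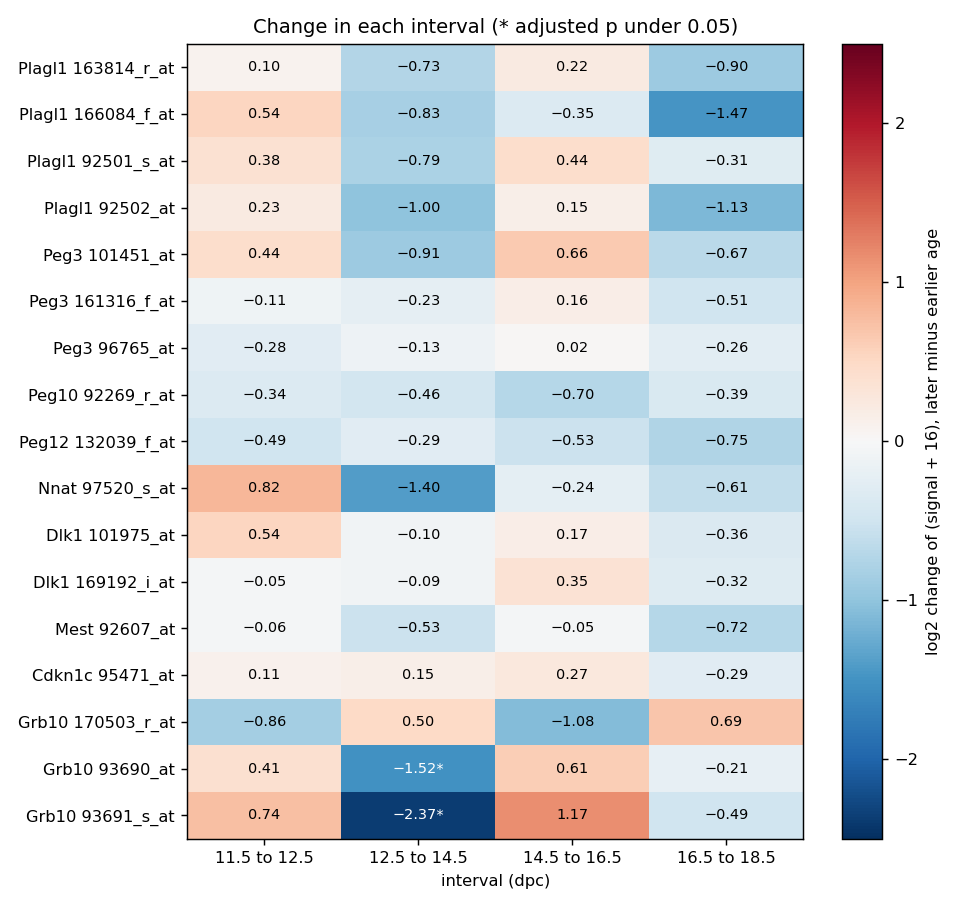
The log2 change of (signal + 16) is coloured and printed for each tested probe set (rows) in each of the 4 intervals between neighbouring ages (columns), with blue for lower at the later age. Stars mark a limma adjusted p under 0.05, which the 2 Grb10 probe sets of array A reached from 12.5 to 14.5 dpc.

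For each gene whose representative probe set was called over the 5 ages, the 3 named genes of the same array type whose log2 signal followed its representative probe set most closely over the 10 arrays were found; these arrays share samples and scaling, and no test was made. Mest was followed most closely by Hnrnph1, which encodes an RNA-binding protein (Pearson r = 0.990, mean signal from 1996 to 1037 between 11.5 and 18.5 dpc), Acot1, an acyl-CoA thioesterase (0.979), and Emcn, an endothelial sialomucin (0.972). Peg10 was followed by 1700017B05Rik (0.975), Asns, an asparagine synthetase (0.956), and Cdk4, a cyclin-dependent kinase (0.955, from 1865 to 899.8). Peg12 was followed by Dock4 (0.972), Skp2, a subunit of a ubiquitin ligase that targets p27 (0.968, from 1690.0 to 153), and Zfp266 (0.966). The closest to Nnat were Tuba1c, an alpha-tubulin (0.974), Lypla1 (0.968) and Hoxd9, a homeobox gene (0.957). The closest to Plagl1 were Ypel1 (0.964), Armcx4 (0.945) and Rabif (0.944). These were the highest values among 6775 probe sets searched on array A or 5530 on array C, counting each gene once. The probe sets of Skp2, Zfp266, Ypel1 and Tuba1c carry an f in their names, as do those of Peg12 and Plagl1. Such probes may match more than 1 sequence. Lypla1 and Rabif did not pass limma's F test over the 5 ages themselves (adjusted p of 0.15 and 0.0545).

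Other imprinted genes of each parental class were listed from the literature, with earlier results of these data known. Of 30 listed paternally expressed genes, 19 had a tested probe set, and 10 of these were lower at 18.5 than at 11.5 dpc and 0 higher (median log2 change -0.66), beside 8.37% and 9.14% of all genes. Outside the genes described above these were 4 of 12 tested, Slc38a4, Mcts2, Inpp5f and Impact, with a median of -0.37 over the 12. Of 33 listed maternally expressed genes, 25 were tested, and 5 were higher (Gatm, Dcn, Meg3, Copg2 and Cd81) and 2 lower (Asb4 and Phlda2), with a median of 0.23. Some of them, such as Gatm, Dcn and Cd81, are known to be imprinted mainly in the placenta. The difference between the classes was not tested, and with 12 tested genes in one and 23 in the other the classes hold few genes beyond those described.

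Slc38a4, a transporter of amino acids that is prominent in placenta and liver, fell most: probe set 163107_at read 645 and 329.7 at 11.5 dpc and 73.5 and 81.5 at 18.5 dpc (5.12-fold, limma adjusted p = 0.000302). Its second probe set, 104286_at, also fell, from 271 ± 100.1 (SD, n = 2) to 107 ± 4.17 (SD, n = 2) (2.26-fold, limma adjusted p = 0.00761). Mcts2, a retrogene, fell 2.68-fold (limma adjusted p = 0.00307). Inpp5f (2.26-fold, limma adjusted p = 0.0263) and Impact (2.34-fold, 0.0292) lost their calls without either sample of 11.5 dpc (0.106 and 0.0597, 0.083 and 0.111) or without the second sample of 18.5 dpc (0.179 and 0.222), and Inpp5f also without the intensity trend (0.0527). A second tested Inpp5f probe set, 167769_f_at, read 96.5 and 68.4 at 11.5 dpc and 114 and 186 at 18.5 dpc, higher in both samples, and did not pass (limma adjusted p = 0.23). Impact (101501_r_at) was dim, with 63.9 and 72.8 at 11.5 dpc and 34.6 and 9.7 at 18.5 dpc, and its log2 change of -1.22 was -0.63 with 64 added to the signal and -1.65 with 4 added.

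Among the maternally expressed genes, Gatm, an enzyme of creatine synthesis, rose most, from 99.3 ± 3.32 (SD, n = 2) to 619 ± 97.6 (SD, n = 2) (5.48-fold, limma adjusted p = 5.53e-05). Its rise came early, with 187 and 232 at 12.5 dpc and 734 and 505 at 14.5 dpc (2.79-fold, limma adjusted p = 0.00983), a call lost without either sample of 12.5 dpc (0.121 and 0.0506) or the first of 14.5 dpc (0.0953), or without the intensity trend (0.0574). A second Gatm probe set, 96336_at, rose 9.51-fold from 11.5 to 18.5 dpc (limma adjusted p = 2.28e-06). It was called higher from 11.5 to 12.5 dpc (limma adjusted p = 0.0446) and from 12.5 to 14.5 dpc (0.00339). Its calls were not recomputed under the other settings. Dcn, the matrix proteoglycan decorin, rose 2.55-fold to 887 ± 23.7 (SD, n = 2) (limma adjusted p = 0.000768). Phlda2 restrains growth of the placenta and lies in the same cluster as Cdkn1c. Phlda2 stood at 308 ± 2.62 (SD, n = 2) at 14.5 dpc and 38.9 ± 20.7 (SD, n = 2) at 16.5 dpc, a fall of 6.13-fold (limma adjusted p = 0.000762). Its signals of 16.5 dpc, 53.5 and 24.2, were near or under 50, and the log2 change of -2.62 was -1.87 with 64 added to the signal and -2.95 with 4 added. Its fall from 11.5 to 18.5 dpc (limma adjusted p = 0.0159) was lost without the second sample of 11.5 dpc (0.0846) or the first of 18.5 dpc (0.135), and the rise of Cd81 (0.00569) without the second of 18.5 dpc (0.0551).

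Neighbours in the same imprinted clusters did not all move with the genes described. Blcap, within which Nnat lies, rose from 46.4 ± 2.62 (SD, n = 2) to 111 ± 1.13 (SD, n = 2) (2.03-fold, limma adjusted p = 0.00363), where Nnat fell. Copg2, the gene next to Mest, rose 1.76-fold (limma adjusted p = 0.0305), a call lost without either sample of 11.5 dpc (0.0511 and 0.121) or of 18.5 dpc (0.179 and 0.0937) and without the intensity trend (0.0825). Asb4, in the cluster of Peg10, fell 2.31-fold (limma adjusted p = 0.0011), as Peg10 did, and a second Asb4 probe set, 163555_at, fell from 481 and 529.6 to 20.1 and 8.9 (limma adjusted p = 5.49e-06). Meg3, the noncoding partner of Dlk1, rose 2.17-fold in its representative probe set (limma adjusted p = 0.00914), a call lost without either sample of 18.5 dpc (0.0652 and 0.0566), and its probe sets disagreed: 160173_at also rose (1.93-fold, limma adjusted p = 0.0415), while 136641_at, which did not pass, read 125 and 29.4 at 11.5 dpc and 28.2 and 20.9 at 18.5 dpc. Over all listed neighbours, by representative probe set, 4 of 25 tested were higher and 2 lower, beside 9.14% and 8.37% of all genes.

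Igf2, the growth factor that shares its cluster with H19, had mean signals of 4522 at 11.5 dpc, 4985 at 16.5 dpc and 3447 at 18.5 dpc, and the log2 change of -0.38 from 11.5 to 18.5 dpc did not pass (limma adjusted p = 0.149). Ndn, in the cluster of Peg12, went from 555 to 432, which did not pass either (limma adjusted p = 0.141). Of 15 listed genes of the network linked to Plagl1, 14 were tested, of which 4 were lower (Mest, Peg3, Plagl1 and Slc38a4) and 2 higher (Dcn and Meg3), beside 8.37% and 9.14% of all genes, with a median log2 change of -0.28. Of the 4, Mest, Peg3 and Plagl1 are among the genes described above and repeat their calls. Among 22 listed paralogs and partners of the genes described, 18 were tested and, by the representative probe set of each, 1 was lower, the growth factor receptor Igf1r. That probe set, 129046_f_at, read 2213 and 1809.7 at 11.5 dpc and 759 and 974 at 18.5 dpc (2.30-fold, limma adjusted p = 0.00869), and its call was lost without the first sample of 11.5 dpc (0.0598) or of 18.5 dpc (0.096) or without the intensity trend (0.0561). The probe sets of Igf1r disagreed: 102224_at was higher, from 158 ± 7.57 (SD, n = 2) to 272 ± 64.1 (SD, n = 2) (1.64-fold, limma adjusted p = 0.0402), and 106956_at and 116112_at did not pass (0.419 and 0.97). Outside the representative probe sets, Trim28, a corepressor that helps keep imprinting marks, was lower in 93071_at (1.85-fold, limma adjusted p = 0.00812), and higher values were called for the insulin receptor gene Insr in 106043_g_at (1.80-fold, limma adjusted p = 0.0184) and for Notch2 in 101342_at, which was dim at 11.5 dpc with 13.1 and 26.6 (2.68-fold, limma adjusted p = 0.0455).

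**Figure D4:**
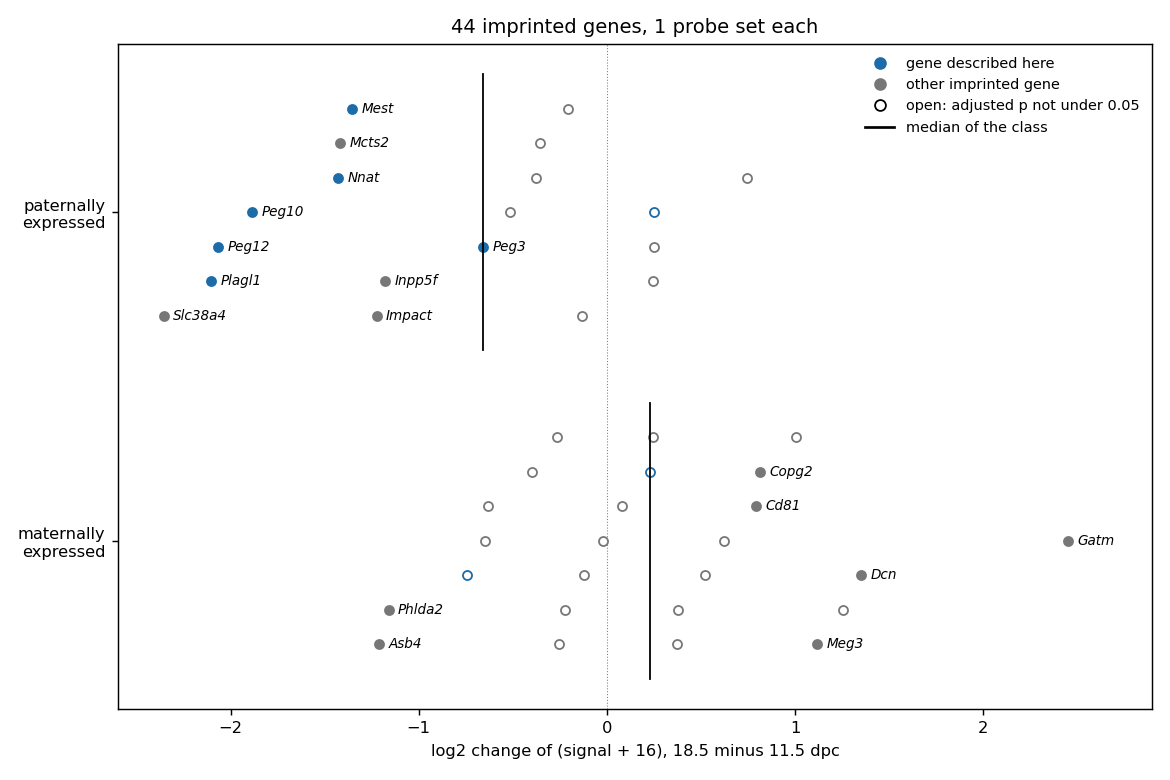
The log2 change of (signal + 16) from 11.5 to 18.5 dpc is drawn on the x axis for 44 imprinted genes, 1 probe set each, in rows of 19 paternally and 25 maternally expressed genes (the height within a row only separates the points). Filled points had a limma adjusted p under 0.05, blue points are the genes described here, and the vertical lines are the medians of -0.66 and 0.23.

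Marker genes of the cell cycle and of several cell types also differed over these ages. The summed signal of 19 tested cell cycle genes of 20 listed lay from 9056 to 11044 at the first 2 ages and from 6185 to 6599 at the last 2, and 11 of the 19 were lower and 1 higher at 18.5 than at 11.5 dpc. Over all genes 8.37% were lower and 9.14% higher, and the counts of the marker lists that follow stand beside these same shares. The sums of 13 germ cell genes went from 1362-3122 to 3916-6907 over the same ages, with 9 of 13 higher and 2 lower. Those of 12 genes of pregranulosa cells, the supporting cells of the ovary, went from 11379-14484 to 15182-19704, with 7 higher and 1 lower. A large part of the pregranulosa sums was 1 bright probe set, Amhr2 166095_f_at. It read 8052 and 8679 at 11.5 dpc and 7928 and 8638 at 18.5 dpc, a log2 change of -0.01 (limma adjusted p = 0.978). The germ cell gene Dazl (94750_at) read 35.0 and 91.5 at 11.5 dpc and 817 and 822 at 18.5 dpc, and Foxl2, the defining factor of pregranulosa cells, read 94.5 and 89.5, then 667 and 793. Both mark cells of the ovary, the tissue named in the labels.

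Sums of 11 endothelial genes went from 1412-1732 to 1120-1352, with 4 lower and 0 higher, and sums of 15 mesenchyme genes from 4487-5488 to 5942-10041, with 5 higher and 3 lower. In mesenchyme the first sample of 16.5 dpc (10041) stood above the second (7015). The sums of 7 surface epithelium genes were 1945 to 2411 and 3193.0 to 4439, and those of 5 smooth muscle genes 599 to 693 and 816 to 1143. Sums of 11 erythroid genes were 16412 to 24276 and 18599 to 25003, and those of 6 adrenal genes 1571 to 2125 and 1615 to 1925.

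Of 8 mesonephros genes 4 could be tested, with sums of 296 to 442 and 371 to 410 and none called, and Pax8 read between 9.1 and 25.2 on every array. The testis markers Amh (11.0 to 21.7) and Cyp17a1 (102416_at, 6.7 to 19.4) were at the dim end on every array. Of 9 listed testis genes 5 could be tested, with sums of 1126 to 1634 and 844 to 1156. Of these 5, 1 was higher (Hsd3b1) and 1 lower (Cyp11a1) at 18.5 than at 11.5 dpc, beside 9.14% and 8.37% of all genes. The ratio of the 3′ to the 5′ Gapdh control probe set, a measure of RNA integrity, was between 0.829 and 0.845 at 11.5 and 12.5 dpc and 1.08 and 1.05 at 18.5 dpc. The part of these marker sums and of the Gapdh ratio in the changes of the imprinted genes was not tested.

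**Figure D5:**
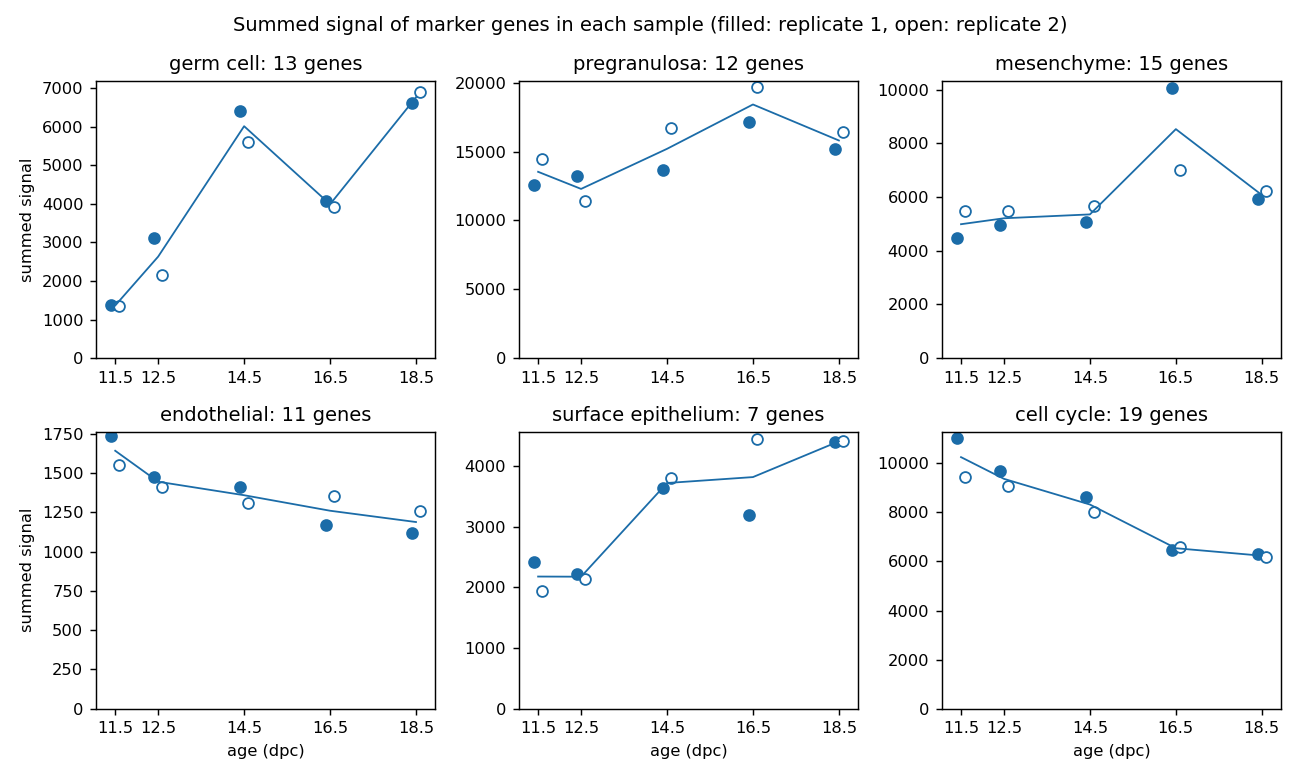
The summed signal of the tested genes of 6 marker lists is plotted against age in dpc for each sample, with y axes that start at 0, the first sample of an age filled, the second open and lines through the means. Cell cycle sums were between 9056 and 11044 at the first 2 ages and between 6185 and 6599 at the last 2, while germ cell sums went from 1362-3122 to 3916-6907.

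Over the series, each array had a trimmed mean signal between 125.02 and 125.08, as scaled by the authors, and a median between 47.0 and 81.7. The correlation of the 2 samples of an age over all tested probe sets was lowest on array C (r = 0.856 to 0.896), higher on array B (0.877 to 0.920) and highest on array A (0.950 to 0.974). Changes between ages were taken within a probe set. Signals of different probe sets and array types were compared only to choose the representative probe set of a gene, and were added in the marker sums. With 2 arrays per age and 5 residual degrees of freedom, the number of arrays limits the precision of each value.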

How the data were processed

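Total RNA of 10 numbered samples was measured on 30 arrays. Per the labels, the authors scaled the deposited signal intensities to a mean signal of 125; the software was not given in the sources used here. The annotation gave 29131 probe sets 1 symbol, 724 several and 6846 none, and probe sets with several were assigned to no gene. All 9 genes found were matched to RefSeq (GRCm38.p6) by gene symbol.

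Signals plus 16 were taken to log2, and the 24825 probe sets with a signal of at least 50 on at least 2 arrays of their type were fitted with limma 3.58.1 (R 4.3.3), 1 fit per array type with the 5 ages as groups and an intensity trend. P-values of the 3 array types were adjusted in 1 Benjamini-Hochberg family, with a call at an adjusted p under 0.05. The steps were tested on simulated data. Alternatives were pseudocounts of 4 and 64, no filter, a floor of 100, quantile normalization, no trend, adjustment within array types, a block for the sample number and each sample left out. Same-numbered samples did not deviate together (correlations of deviations from -0.161 to 0.219), so the number was not used as a pairing.

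The genes, the lists and the tests were chosen with earlier results of these data known. Every probe set of the listed genes is named. Of the other imprinted genes, neighbours and partners, those called over the 5 ages are named, with up to 4 others. Among those called, Mirg (170430_f_at, limma adjusted p = 0.0415 over the 5 ages) lost its call with adjustment within each array type (0.0698). Also named are the 3 most similar genes by Pearson r and up to 3 defining genes of a marker list. Further probe sets of Gatm, Inpp5f and Igf1r, and those of Insr, Trim28 and Notch2 outside the representative ones, were named after their values were seen. The same holds for the marker genes Amhr2, Hsd3b1 and Cyp11a1.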

Additional observations from a re-analysis of the deposited data

How the results depend on the processing

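Of 1220 recomputed values of single probe sets, 1120 kept their direction and their side of the threshold, 74 lost a call, 23 gained one and 3 turned sign. The 3 were uncalled log2 differences of Dlk1 between 18.5 and 11.5 dpc: 101975_at had -0.21 without the first sample of 11.5 dpc (range 0.71 to -0.21 over the samples left out), and 169192_i_at had 0.12 without that sample and 0.05 without the second of 18.5 dpc (range -0.32 to 0.12). Adjustment within each array type called 1 probe set from 16.5 to 18.5 dpc in place of 0, and no other change of setting short of leaving out a sample moved a count of called probe sets by over 1.5 times. Leaving out 1 sample gave 7 to 10 called probe sets over the 5 ages, 0 to 1 from 11.5 to 12.5 dpc, 0 to 3 from 12.5 to 14.5 dpc, 0 to 1 from 14.5 to 16.5 dpc, 0 to 1 from 16.5 to 18.5 dpc and 6 to 11 from 11.5 to 18.5 dpc; the remaining sample of that age is then assumed to vary like the others. The sample numbers did not pair the samples, and a replicate block called 9 over the 5 ages, 3 from 12.5 to 14.5 dpc, 9 from 11.5 to 18.5 dpc and 0 elsewhere. Dim probe sets such as those of Peg10 lie near background, where intensity limits the fold that can be measured.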
